A study of Mus musculus with 12 samples.

Results

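The genes described here are the heat shock proteins and molecular chaperones of the mouse hippocampus and their cochaperones. A gene was taken when a probe set carried a single annotated symbol starting with Hspa, Hspb, Hspd, Hspe, Hsph, Hsp90, Dnaj, Cct plus a digit or Bag plus a digit. This gave 59 genes on 87 probe sets, of 8252 genes with a single symbol on the array, and each gene is represented by its brightest probe set. The rule goes by names and uses no measured difference. It was set with earlier results of these data known, and mean brightness over all arrays chose the probe set. The rule leaves out Tcp1, the first TRiC/CCT subunit, which has another name. Grouped by symbol alone, the list holds 27 J proteins, 11 members of the Hsp70 and Hsp110 families, 8 subunits of the cytosolic chaperonin TRiC/CCT and 4 BAG cochaperones. It also holds 4 genes with small heat shock protein symbols (Hspb), 2 Hsp90 proteins, the 2 proteins of the mitochondrial chaperonin and the Hsp70 binding partner Hspbp1.

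Chaperones bind unfolded or partly folded proteins and use cycles of ATP binding and hydrolysis to let them fold. Hsp70 proteins take up clients delivered by J proteins (Dnaj), nucleotide exchange factors such as the BAG and Hsp110 proteins release them, Hsp90 acts late on kinases and receptors, and the ring-shaped chaperonins enclose actin, tubulin and mitochondrial proteins. Neurons use the same machinery for synaptic vesicle traffic, in which Hspa8 and its vesicle-bound J protein Dnajc5 take part, and the transcription factor Hsf1 raises many of these genes when misfolded protein accumulates.

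Expression was measured on 12 oligonucleotide arrays, 1 per RNA sample. VP16-CREB (VC) mice carry a transgene in which the viral activation domain VP16 makes CREB, a cAMP-responsive transcription factor, active without a stimulus, and doxycycline (dox) keeps this transgene off. In the published line the transgene is driven in forebrain neurons by the CaMKII alpha promoter, a point that the labels do not state. Whole hippocampus came from wild-type mice (n = 2 arrays), VC mice kept on dox (n = 1), VC mice without dox for 1 week (n = 2), for 2 weeks (n = 2) or for 5 weeks (n = 1), and VC mice that were off dox for 3 weeks and then back on it for 2 weeks (n = 1, called reversed). The reversed array is a VC sample by its title and a wild-type one by its description. Microdissected CA1, a subfield of the hippocampus, was taken from wild-type animals (n = 1 array) and from VC mice without dox for 3 weeks (n = 2). The wild-type and on-dox arrays form the never-induced level (n = 3) and the 1, 2 and 5 week arrays the induced level (n = 5). Each hippocampal sample pooled tissue of 6 to 10 mice, and the labels do not say whether CA1 samples were pooled. The p-values thus measure the spread between arrays of a level, mostly pools, and not between single mice. That spread also holds differences between wild type and VC on dox and, where the weeks are joined, between weeks. A level of 1 array has no replicate error of its own and is assumed to vary like the others. Wild-type mice were kept like the VC mice, per the series' design text, and strain, age and sex were not used here.

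Values are log2 intensities after every array was scaled to a trimmed mean of 1000, with a floor at 6.04. The transgene check followed the labels: a Creb1 probe set read 6.04 and 6.33 in wild-type hippocampus, 6.04 on dox, 8.31 to 9.63 in the 5 induced arrays, 7.10 in the reversed array, 6.04 in wild-type CA1, and the VC CA1 arrays read 8.86 and 9.56. All 3 CA1 arrays and wild-type hippocampal array 1 were deposited on a lower scale than the other 8 arrays, so the region and that scale largely overlap. Pairs of hippocampal arrays correlated at 0.93 to 0.98, while pairs of CA1 arrays reached only 0.91 to 0.95. A CA1 array paired with a hippocampal one gave 0.83 to 0.92. The ratio of 3′ to 5′ signal of the control transcript Pcx, a measure of RNA and target length, was 4.91 to 6.73 in CA1 and 2.07 to 3.79 in hippocampus. For Actb the ranges overlapped, with 1.40 to 3.73 in CA1 and 1.80 to 2.81 in hippocampus. They also did for Gapdh, with 0.836 to 1.17 and 0.868 to 1.36. The VC CA1 arrays 1 and 2 were at 3.73 and 1.40 for Actb. Among the hippocampal arrays, 1-week array 1 had the lowest such ratio for all 3 control transcripts, at 2.07 for Pcx, 1.80 for Actb and 0.868 for Gapdh. Of the induced arrays it was the highest for Bag6 and Dnajc5 and the lowest for Bag3. By Dixon's test for a single outlying array only Bag6 stood apart on it, while Hspa4 and Hspb11 did on 2-week array 1. The part of the deposited scale and of these ratios in the results was not tested. In such tissue samples fewer cells of a type and less RNA per cell cannot be told apart.

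Of the 59 genes, 54 lay above the median of their own array on at least 2 arrays and were tested. The other 5 were Cct6b, Dnajb5, Dnajb8, Hspa1l and Hspb1. Hspb1, the small heat shock protein Hsp27, read 6.04 to 7.42 over the 12 arrays, and 3 arrays lay at the floor. Hspa1l, an Hsp70 of the testis, read 7.87 to 8.50 on the 8 hippocampal arrays other than the reversed one, 6.30 on the reversed array and 6.04, 8.15 and 7.48 in CA1. Hsp90ab1 and Dnajc6 have no probe set with a single symbol on this array and were not analysed here.

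**Figure D1:**
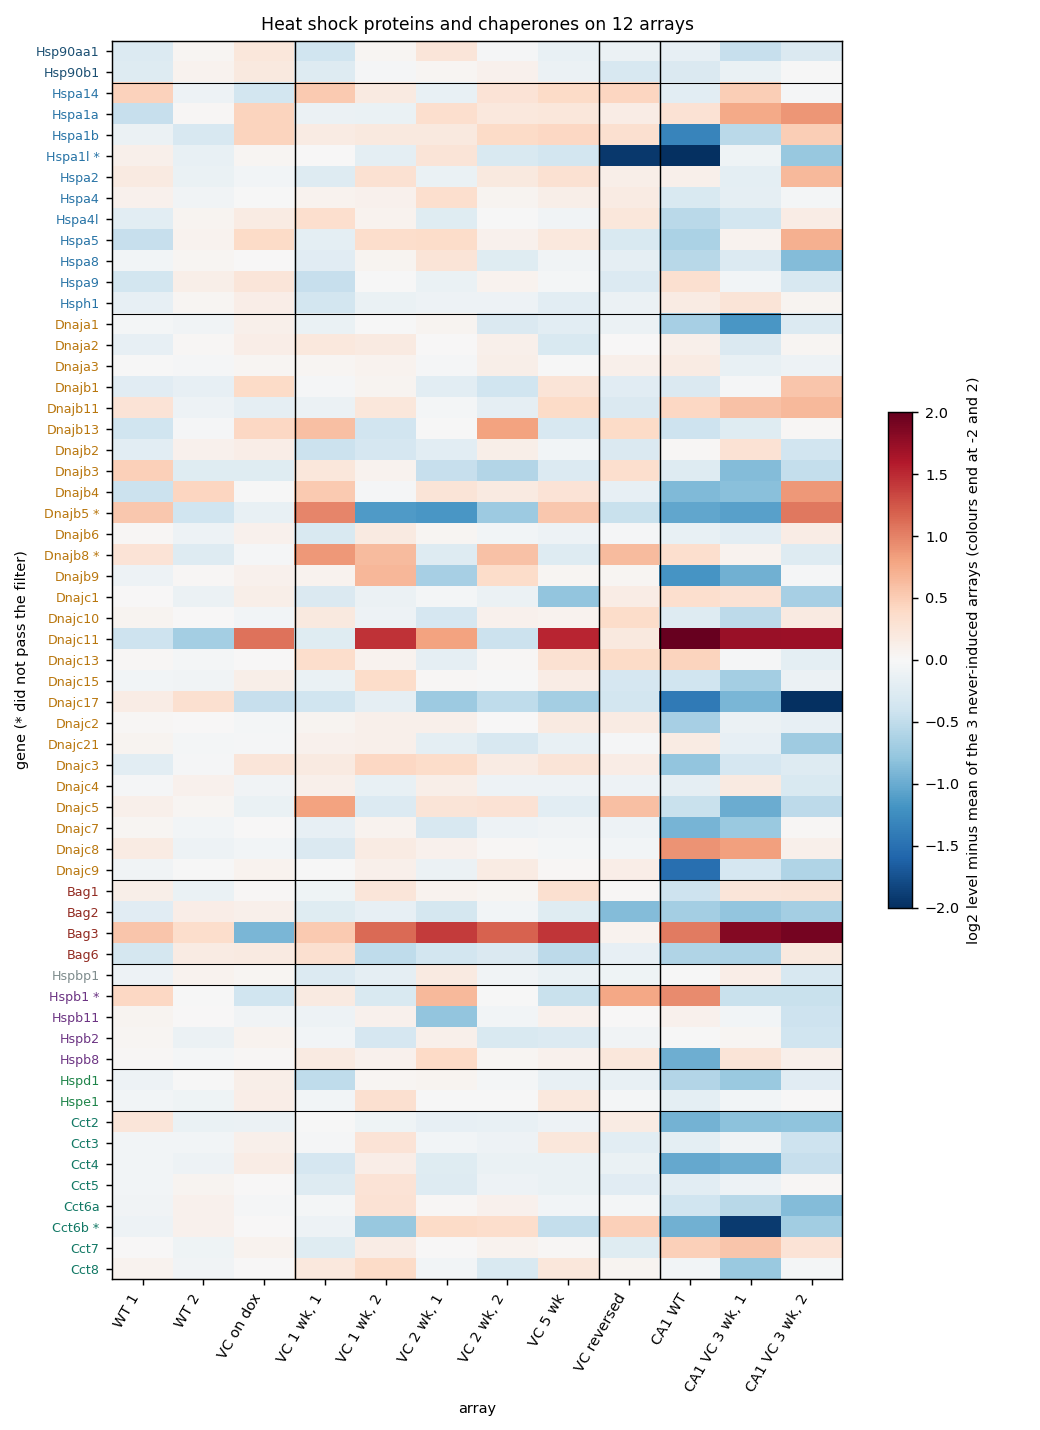
The rows are the 59 genes by family and the columns the 12 arrays, and the colour is the log2 level minus the gene's mean over the 3 never-induced arrays, in log2 units with colours ending at -2 and 2. Most hippocampal cells are pale, Bag3 lies above that mean in all 5 induced arrays and all 3 CA1 arrays, and the 3 CA1 columns carry most of the strong colours.

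The chaperones were steady across the hippocampal arrays. The SD of a tested member over the 9 hippocampal arrays had a median of 0.19 on the log2 scale, against 0.22 for all 7069 tested probe sets. A range under 0.5 was seen in 21 of the 54 members (38.9%) and in 26.1% of all tested probe sets, and a range over 1 in 7 of the 54 members and in 21.8% of all tested probe sets. These shares are descriptions. The members also sit on brighter probe sets (median level 10.6 against 9.99), and brighter probe sets can vary less.

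The first comparison asked whether 1 to 5 weeks of VP16-CREB expression changed chaperone mRNA in the whole hippocampus. No member passed an adjusted p of 0.05 in limma (0.0283% of all tested probe sets did), and 1 member, Bag3, had an unadjusted p under 0.05 (3.15% of all tested probe sets). Of the 54 members, 28 had a positive and 26 a negative difference. The median difference was 0.01, with -0.02 over all tested probe sets. The 95% interval of the difference lay within a 2-fold change either way for 51 of the 54 members and within 1.5-fold for 39. The lowest induced array was above the highest never-induced one for 1 member (1.71% of all tested probe sets), and no member had the reverse order (1.66%).

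Hsp90aa1 encodes the stress-inducible cytosolic Hsp90. It read 14.32 and 14.63 in wild type, 14.81 on dox, 14.19 and 14.62 at 1 week, then 14.83 and 14.56 at 2 weeks, with 14.44 at 5 weeks. The induced arrays lay on both sides of the never-induced ones, and the difference was -0.06 ± 0.17 (SE, 95% interval -0.43 to 0.31). Hsp90b1, the Hsp90 of the endoplasmic reticulum (ER), read 12.16 to 12.60 in the never-induced and 12.15 to 12.50 in the induced arrays.

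Hspa8 is the constitutive Hsp70 that uncoats clathrin vesicles at synapses. Its levels were 13.53 and 13.63 in wild type, 13.59 on dox and 13.33 to 13.84 in the induced arrays, a difference of -0.04 ± 0.17. Hspa1a and Hspa1b are the neighbouring heat-inducible Hsp70 genes, and their coding sequences are so alike that their probe sets may not separate them. Hspa1b read 10.10 and 9.89 in wild type, 10.66 on dox, 10.38 and 10.41 at 1 week, then 10.42 and 10.60 at 2 weeks, with 10.63 at 5 weeks. Its induced arrays all lay above wild type and all below the array on dox, and the difference was 0.27 ± 0.24 (adjusted p = 0.999, limma). Hspa1a was at 10.00 and 10.48 in wild type, at 10.91 on dox and at 10.33 to 10.80 in the induced arrays.

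Promoter windows from RefSeq (build GRCm38.p6) place the binding motif of Hsf1 in the inducible Hsp70 pair. A window runs from 250 bases before to 50 bases after an annotated start. The Hspa1a and Hspa1b windows agree in 247 of the 250 bases before the start, and both hold the pair GAANNTTC at positions -104 to -97. It is shown in capitals in bases -130 to -50 of Hspa1b, chr17:34959288-34959368, minus strand.
Hspa1b: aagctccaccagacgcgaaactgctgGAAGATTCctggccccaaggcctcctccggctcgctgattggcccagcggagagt

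The other Hsp70 relatives also overlapped between the groups. Hspa5 (BiP), the main Hsp70 of the ER, read 11.65, 12.18 and 12.50 in the never-induced and 11.91 to 12.48 in the induced arrays. Hspa9, the mitochondrial Hsp70, had a difference of -0.11 ± 0.17, Hspa4 and Hsph1, both Hsp110 proteins that act as nucleotide exchange factors, 0.13 ± 0.12 and -0.18 ± 0.12, and Hspa2 0.08 ± 0.21. Over the 10 tested members of these families 7 differences were positive, from -0.18 to 0.27, and none passed the test.

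Among the J proteins, 25 were tested, 13 with a positive difference and none past the test. Dnaja1, a cytosolic partner of Hspa8, read 13.39 to 13.56 in the never-induced and 13.17 to 13.51 in the induced arrays. Dnajb1 (Hsp40), the stress-inducible partner of Hsp70, read 10.18, 10.25 and 10.80 in the never-induced and 10.02 to 10.67 in the induced arrays. Dnajc5, the cysteine string protein of synaptic vesicles, read 9.32 to 9.56 in the never-induced arrays and 10.27, 9.19, 9.72, 9.74 and 9.25 in the induced ones, where 1-week array 1 was the highest. Dnajc3, an ER cochaperone, read 9.30, 9.48 and 9.76 in the never-induced and 9.67 to 9.92 in the induced arrays, a difference of 0.28 ± 0.13 (adjusted p = 0.999, limma). The array on dox overlapped with the induced ones.

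Dnajc11, a J protein of the mitochondrial membrane, varied most. It read 7.34 and 7.07 in wild type, 8.84 on dox, 7.50 and 9.19 at 1 week, then 8.56 and 7.32 at 2 weeks, with 9.28 at 5 weeks. Replicates of the same week differed by more than a log2 unit, and the difference of 0.62 ± 0.52 was within that spread. The lowest difference in the list was that of Dnajc17, a nuclear J protein, with -0.50 ± 0.35, followed by Bag6 (-0.27 ± 0.25) and Dnajc1 (-0.27 ± 0.23).

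Bag3 had the highest difference of the list. It encodes a cochaperone that releases clients from Hsp70 and directs them to autophagy together with Hspb8. Bag3 read 8.09 and 7.89 in wild type, 6.63 on dox, 8.06 and 8.66 at 1 week, then 8.93 and 8.71 at 2 weeks, with 8.96 at 5 weeks. Of the 5 induced arrays, 4 lay above every never-induced one, and 1-week array 1 lay just below wild-type array 1. The induced level was 2.19-fold the never-induced one (1.13 ± 0.32 on the log2 scale, SE, 95% interval 0.43 to 1.83). Its unadjusted p of 0.00476 gave an adjusted p of 0.999 in limma. Without the array on dox the difference was 0.68, and without 1-week array 1 it was 1.28. A second, dim Bag3 probe set that was not tested read 6.49, 6.60 and 6.60 in the never-induced and 6.43, 7.18, 7.44, 7.05 and 7.47 in the induced arrays, again with 1-week array 1 as the low one.

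Bag3 is also known to be expressed outside neurons, and some marker sums of other cells were higher at 2 and 5 weeks but not at 1 week. The summed intensity of 10 microglial markers, none of them at the floor on all hippocampal arrays, was 15038 to 18716 in the never-induced arrays. It was 15098 and 15766 at 1 week and 28176 to 54559 at 2 and 5 weeks. For 7 measured astrocyte markers of 8 these values were 36335 to 39530, 34180 and 36621, and 46145 to 58103. Choroid plexus and ependymal markers were instead high at 1 week (13113 and 13636, never-induced 5158 to 7569). Oligodendrocyte markers overlapped (33905 to 42786 never-induced, 35090 to 41671 induced). Their part in the Bag3 values was not tested.

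The Bag3 window holds one Hsf1 pair, just after the start, at positions 43 to 50. It is shown in capitals in bases 21 to 50, chr7:128523603-128523632, plus strand.
Bag3: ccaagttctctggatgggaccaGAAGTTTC

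The other BAG cochaperones did not pass the test. Bag1, which links Hsp70 to the proteasome, had a difference of 0.12 ± 0.13. Bag2, an inhibitor of the ubiquitin ligase Chip, had one of -0.21 ± 0.13. Bag6, which handles tail-anchored and mislocalised membrane proteins, read 10.80, 11.31 and 11.34 in the never-induced arrays and 11.46, 10.65, 10.78, 10.86 and 10.62 in the induced ones, where 1-week array 1 stood apart. Its difference of -0.27 became -0.42 without that array. Other tested Bag6 probe sets had differences of 0.23 and -0.10, so the Bag6 probe sets disagree.

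Hspb8, the small heat shock protein that works with Bag3, was the member whose induced arrays all lay above the never-induced ones. It read 10.24 and 10.18 in wild type, 10.25 on dox, 10.40 and 10.31 at 1 week, then 10.62 and 10.27 at 2 weeks, with 10.32 at 5 weeks. The gap was small, with a difference of 0.16 ± 0.12 (adjusted p = 0.999, limma). The reversed array read 10.45, above every induced array except 2-week array 1. What set this order was not tested. Hspb2 and Hspb11 had differences of -0.17 ± 0.15 and -0.15 ± 0.20.

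No chaperonin gene passed the test. Hspd1 (Hsp60) read 13.46, 13.54 and 13.67 in the never-induced and 13.05 to 13.61 in the induced arrays, and its partner Hspe1 (Hsp10) 11.42 to 11.63 and 11.45 to 11.83. The 7 tested TRiC/CCT subunits, which fold actin and tubulin, had differences from -0.14 (Cct4) to 0.10 (Cct8). Tcp1, the subunit outside the name rule, had a difference of -0.29 ± 0.13 (unadjusted p = 0.0470, adjusted p = 0.999, limma).

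**Figure D2:**
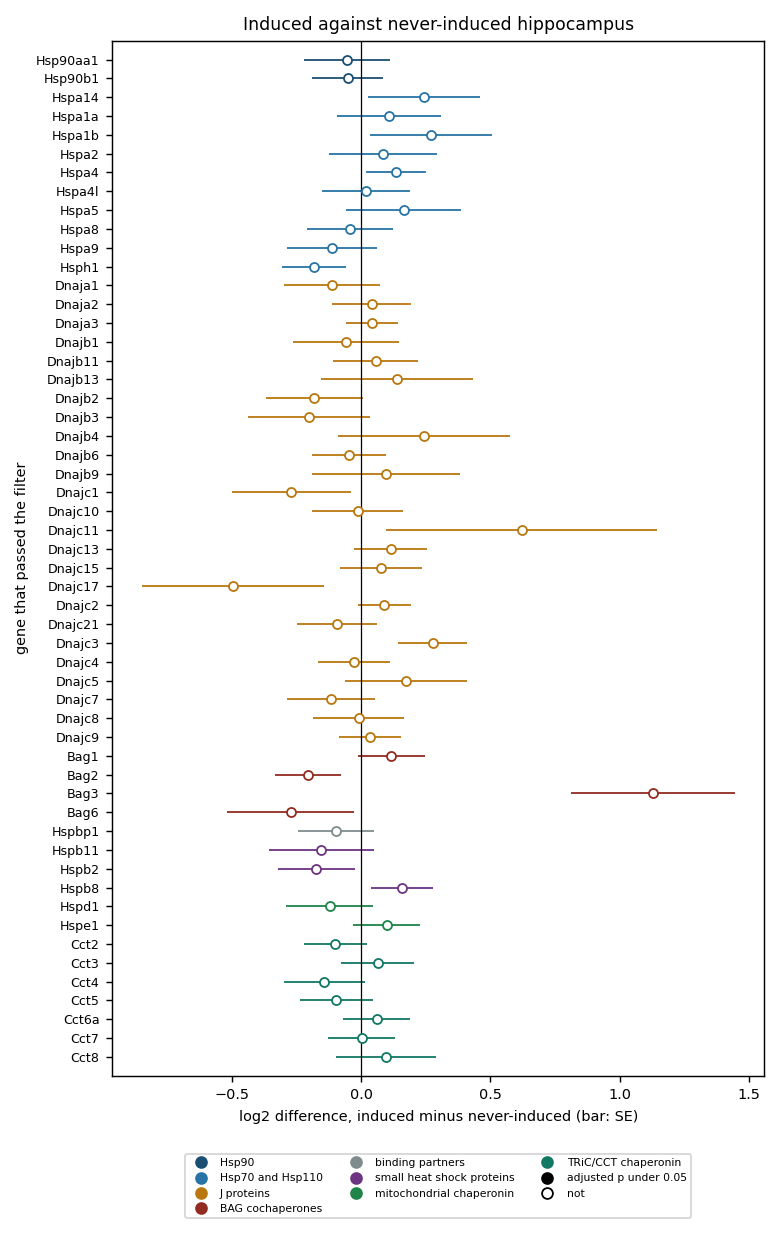
Points give the log2 difference of the 5 induced from the 3 never-induced hippocampal arrays for each of the 54 tested genes, bars the SE from limma, and colours the family. All points are open because no gene passed an adjusted p of 0.05, and Bag3 at 1.13 lies farthest from 0.

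Splitting the induced arrays by week gave no call either. These 3 comparisons share the never-induced arrays. At 1 week no member passed the test (0.0283% of all tested probe sets) and none had an unadjusted p under 0.05 (5.01%). At 2 weeks none passed (0.156%) and 1 did unadjusted (4.46%). At 5 weeks none passed (0.99%) and 2 did unadjusted (7.3%). Between 5 weeks and 1 week none passed (0.637%) and 1 did unadjusted (6.85%).

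Bag3 had a difference from the never-induced arrays of 0.83 ± 0.40 after 1 week, 1.29 ± 0.40 after 2 weeks and 1.42 ± 0.51 after 5 weeks, and 5 weeks exceeded 1 week by 0.60 ± 0.54 (adjusted p at least 0.506 in each of the first 3, limma). Without the array on dox the first 3 were 0.37, 0.83 and 0.97. The summed microglial markers were 15098 and 15766 on the 1-week arrays, 28176 and 30670 on the 2-week arrays, and 54559 on the 5-week array. Their part was not tested. At 5 weeks, Dnajc1, an ER J protein, was at 7.79 against 8.59, 8.47 and 8.70 in the never-induced arrays, and its difference of -0.79 ± 0.32 had an adjusted p of 0.620. Dnaja2, a cytosolic J protein, read 10.79 and 10.76 at 1 week and 10.26 at 5 weeks (-0.51 ± 0.22, adjusted p = 0.718, limma). Both 5-week values rest on 1 array.

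The highest and lowest differences at each week were otherwise small or came from genes that vary between replicates. At 1 week they were 0.60 ± 0.64 for Dnajc11 and 0.37 ± 0.36 for Dnajb9 and -0.38 ± 0.23 for Dnajb2, -0.29 ± 0.47 for Dnajc17 and -0.25 ± 0.16 for Hsph1. At 2 weeks Dnajb13 and Hspa1b stood at 0.40 ± 0.36 and 0.29 ± 0.32, and Dnajc17, Dnajb3 and Hspb11 at -0.62 ± 0.47, -0.52 ± 0.25 and -0.42 ± 0.23. At 5 weeks Dnajc11 was at 1.53 ± 0.81, Hspa1b at 0.41 ± 0.41, Dnajc17 at -0.68 ± 0.60 and Bag6 at -0.53 ± 0.40. Other tested Bag6 probe sets stood at 0.31 and -0.08 there. Against 1 week, 5 weeks gave 0.93 ± 0.86 for Dnajc11, 0.35 ± 0.33 for Hspa1a, -0.59 ± 0.34 for Dnajc1 and -0.48 ± 0.40 for Dnajc5.

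The reversed array showed what was seen after the transgene was switched off again. Against never-induced hippocampus no member passed the test (0% of all tested probe sets) and 1 had an unadjusted p under 0.05 (2.55%). Against induced hippocampus none passed (0%) and 2 did unadjusted (2.56%). Bag3 was at 7.61 in the reversed array, below all 5 induced arrays and both wild-type arrays, and above the array on dox alone (6.63). The difference from the induced level was -1.06 ± 0.47 (unadjusted p = 0.0487, adjusted p = 1, limma), and from the never-induced level 0.07 ± 0.50.

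Bag2 was the other gene. It read 11.24 and 11.60 in wild type, 11.57 on dox and 11.12 to 11.42 in the induced arrays, and 10.61 in the reversed array. That array was below the other 8 hippocampal arrays, with differences of -0.86 ± 0.20 from the never-induced level (unadjusted p = 0.00152, adjusted p = 1, limma) and -0.65 ± 0.19 from the induced one. A second tested Bag2 probe set read 10.60 to 10.83 in the never-induced arrays and 10.84 in the reversed one, so the 2 probe sets disagree. Dnajc5 and Hspa14 had the highest differences from the never-induced level (0.61 ± 0.37 and 0.42 ± 0.34), and Dnajc13, a J protein of endosomes, 0.38 ± 0.22. Dnajc17 and Dnajc15 had -0.36 ± 0.56 and -0.33 ± 0.25. Against the induced level Hspa5 was at -0.47 ± 0.33, Dnajb3 at 0.54 ± 0.35, Dnajc5 at 0.43 ± 0.36 and Dnajc1 at 0.42 ± 0.35.

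Microdissected CA1 was compared between VC mice 3 weeks off dox and wild-type mice. The comparison has 1 wild-type array, so each difference rests on that array's value. Hspb8 passed the test and was higher in VC CA1, the only member to do so in any comparison between VC and control samples (0.467% of all tested probe sets passed here). Of the 54 members, 9 had an unadjusted p under 0.05 (10% of all tested probe sets), 7 higher and 2 lower. The median difference of the members was 0.11 and that of all tested probe sets -0.02.

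Hspb8 read 9.25 in wild-type CA1, and the VC CA1 arrays read 10.48 and 10.32, 2.23-fold higher (1.16 ± 0.20, SE, adjusted p = 0.0443, limma). The 9 hippocampal arrays read 10.18 to 10.62. The VC CA1 arrays therefore lay in the hippocampal range and the wild-type CA1 array below it. The call was lost under 5 of the alternatives in processing and without VC CA1 array 2 (limma adjusted p = 0.0504), while the direction stayed. Its window holds an Hsf1 pair right after the start, at positions 3 to 10, in capitals in bases -10 to 20, chr5:116422845-116422874, minus strand.
Hspb8: cagaagccaggaGAAGTTTCtaggctcgcg

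Dnajc9, a J protein that also handles histones, had a like pattern. It read 9.74 in wild-type CA1, 10.91 and 10.64 in VC CA1 and 11.13 to 11.41 on the 9 hippocampal arrays. The difference of 1.04 ± 0.20 had an adjusted p of 0.0665 (limma), and the wild-type CA1 array was again the lowest of the 12.

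Hspa1b read 8.89 in wild-type CA1, and the VC CA1 arrays read 9.67 and 10.71, with 9.89 to 10.66 in hippocampus. The difference of 1.30 ± 0.40 had an adjusted p of 0.268, and the 2 VC arrays differed from each other by more than a log2 unit. Without VC CA1 array 1 it was 1.82 (adjusted p = 0.0335), and without array 2 it was 0.78 (adjusted p = 0.462, limma). Hspa1a read 10.74 in wild-type CA1, and the VC CA1 arrays read 11.22 and 11.35 (0.54 ± 0.34). Here the wild-type CA1 array lay within the hippocampal range of 10.00 to 10.91, so the probe sets of the 2 near-identical genes differ in that array.

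Hspa5 read 11.47 in wild-type CA1, and the VC CA1 arrays read 12.18 and 12.81, against 11.65 to 12.50 in hippocampus. Its difference was 1.02 ± 0.37 (adjusted p = 0.380, limma). The other ER chaperones with the same promoter motif, Dnajc3 and Hsp90b1, had differences of 0.50 ± 0.22 and 0.22 ± 0.23. This ER stress element is CCAAT, 9 further bases and CCACG on either strand. Among the member windows it was found in these 3 genes, and 0.143% of the windows of all genes with a single symbol on the array hold it. The element is in capitals in bases -110 to -30 of Hspa5 (chr2:34771980-34772060, plus strand), -130 to -60 of Dnajc3 (chr14:118937802-118937872, plus strand) and -225 to -80 of Hsp90b1 (chr10:86705524-86705669, minus strand), where it occurs in both orientations.
Hspa5: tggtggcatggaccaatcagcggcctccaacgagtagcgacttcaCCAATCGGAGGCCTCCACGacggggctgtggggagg
Dnajc3: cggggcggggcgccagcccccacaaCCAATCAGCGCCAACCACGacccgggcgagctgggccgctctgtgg
Hsp90b1: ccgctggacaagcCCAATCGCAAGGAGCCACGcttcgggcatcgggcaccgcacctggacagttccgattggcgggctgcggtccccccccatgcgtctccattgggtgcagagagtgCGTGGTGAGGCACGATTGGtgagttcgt

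Bag3 read 8.58 in wild-type CA1, and the VC CA1 arrays read 9.38 and 9.45. Both VC arrays were above every hippocampal array, and the difference of 0.84 ± 0.53 had an adjusted p of 0.658 (limma). Bag1 was at 10.10 against 10.76 and 10.78 (0.67 ± 0.22) and Dnajc2, a ribosome-bound J protein, at 9.71 against 10.25 and 10.19 (0.51 ± 0.17). Dnajc21 and Dnajc13 had negative differences of -0.59 ± 0.26 and -0.56 ± 0.24, and Dnajc1 followed with -0.52 ± 0.39. Leaving out VC CA1 array 1 or 2 gave -0.86 or -0.33 for Dnajc21 and -0.99 or -0.047 for Dnajc1. None of these 6 genes passed the test.

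The abundant chaperones Hsp90aa1 and Hspa8 of the cytosol and Hspd1 of mitochondria did not pass the test in CA1. Hsp90aa1 read 14.43 in the wild-type array against 14.13 and 14.30, Hspa8 13.02 against 13.30 and 12.71, and Hspd1 12.97 against 12.81 and 13.33. Dnajb1 had a difference of 0.56 ± 0.34, Hsph1 of -0.01 ± 0.21. The TRiC/CCT subunits ran from -0.34 (Cct8) to 0.30 (Cct4).

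Marker sums of cell types went in different directions in this comparison. Neuronal markers summed to 41439 in wild-type CA1 and 34709 to 37399 in the VC arrays, and endothelial ones to 5711 and 4135 to 5474. Oligodendrocyte sums were 43151 and 40276 to 43017, and the astrocyte sum of 38861 lay between those of the VC arrays (34066 and 55129). The 10 microglial markers summed to 23283 in wild-type CA1 and to 58508 or 63946 in the VC arrays, and all 9 tested ones had a positive difference, with a median of 1.44. Their part in the chaperone values was not tested.

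**Figure D3:**
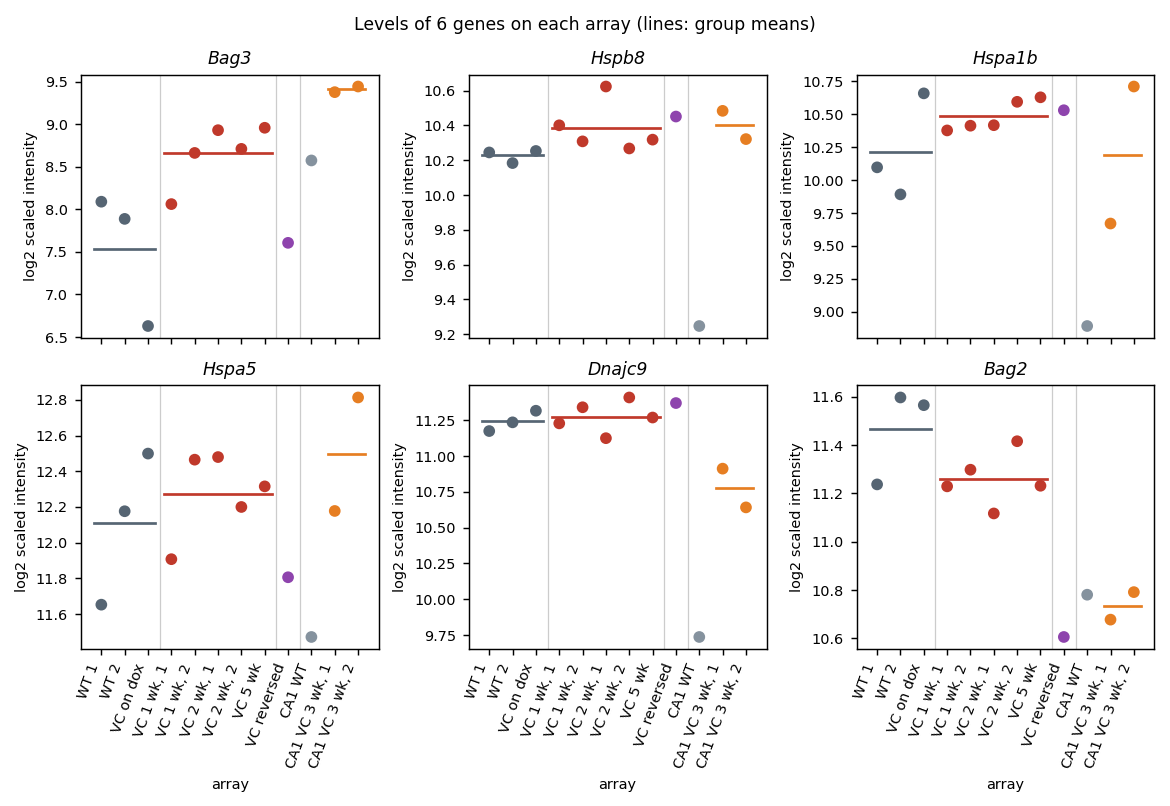
Each panel gives the log2 scaled intensity of 1 gene on the 12 arrays, with lines at the means of the never-induced, induced and VC CA1 arrays, on an axis of its own that does not start at 0. Wild-type CA1 is the lowest point for Hspb8 (9.25), Dnajc9 (9.74), Hspa1b (8.89) and Hspa5 (11.47), and the reversed array is the lowest for Bag2 (10.61).

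Whether the VC effect differed between CA1 and whole hippocampus was tested directly. No member passed (0.0566% of all tested probe sets), and 4 had an unadjusted p under 0.05 (5.81%). These were Hspa1b (1.03 ± 0.46), Dnajc9 (1.01 ± 0.23), Hspb8 (1.00 ± 0.24) and Dnajc13 (-0.68 ± 0.28), with adjusted p-values of 0.857, 0.245, 0.248 and 0.817 (limma). For Hspb8 the hippocampal difference was 0.16 and the CA1 difference 1.16. Dnajc11 and Dnajc21 were the other members at the low end, with -1.05 ± 1.02 and -0.50 ± 0.30.

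CA1 against whole hippocampus gave the most calls. CA1 is a part of the hippocampus rich in pyramidal neurons, and the comparison averaged the wild-type and VC levels of CA1 and the never-induced and induced levels of hippocampus. Of the 54 members 21 passed the test (35.9% of all tested probe sets), 5 higher in CA1 (11.4%) and 16 lower (24.5%), and 24 had an unadjusted p under 0.05 (47.1%). The median difference was -0.20 for the members and -0.13 for all tested probe sets. All 3 CA1 arrays lay below all 9 hippocampal arrays for 9 members (16.8% of all tested probe sets) and above them for 3 (7.61%).

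The split of calls between higher and lower depends on the scaling. Over all tested probe sets 31.8% of the calls were higher in CA1, and 42.9% after quantile normalization, which moved the median of all tested probe sets to -0.03 and called 18 members. Centring every array on the median of the tested probe sets called 15 members and made 49.8% of all calls higher. A block for the deposited scale leaves wild-type hippocampal array 1 as the only hippocampal array on the scale of the CA1 arrays. It called 2 members, Cct2 and Dnajc9, among 288 probe sets in place of 2539.

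Of the 21 genes, 12 kept the call whichever single array was left out, among the arrays that could be. The wild-type CA1 array is alone at its level and could not be left out, so dependence on it was not tested. Hspb8 is among the 12, though its VC CA1 arrays (10.48 and 10.32) lay in the hippocampal range of 10.18 to 10.62. The other 9 lost it without at least 1 array: Bag3, Cct7, Dnajb9, Dnajb11, Dnajc5, Dnajc11, Hspa1b, Hspa8 and Hspd1. Probe sets of a gene often disagreed. Of 12 members with several tested probe sets, 5 had the same sign on all of them. The brightest one was called for 6, of which 1 (Bag2) was also called on another probe set, and for 5 others (Bag6, Cct3, Dnajb6, Dnajb13 and Hspa4) only a dimmer one was called.

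The cytosolic chaperonin carried 4 of the 21 calls, from 7 tested subunits, with 3 lower and 1 higher in CA1. Over all tested probe sets 24.5% were called lower and 11.4% higher. Cct2 read 9.31, 9.43 and 9.45 in CA1, the first being wild type, and 10.10 to 10.50 in hippocampus (-0.83 ± 0.12, adjusted p = 0.000856, limma). Cct4 read 10.67, 10.71 and 11.23 against 11.36 to 11.85 (-0.80 ± 0.15), and Cct6a 10.43, 10.27 and 9.95 against 10.76 to 11.12 (-0.59 ± 0.13). The Cct6a probe set carries the suffix f, for sequence shared by related genes. Cct7 went the other way, with 12.81, 12.89 and 12.61 in CA1 and 12.09 to 12.49 in hippocampus (0.44 ± 0.13, limma adjusted p = 0.0218). Its call was lost without VC CA1 array 1 (limma adjusted p = 0.0597). Cct3, Cct5 and Cct8 had differences of -0.25, -0.08 and -0.27 and did not pass, and neither did Tcp1 (-0.32 ± 0.13). A Cct3 probe set of like brightness read 9.17, 9.83 and 9.98 in CA1 and 10.69 to 11.21 in hippocampus (-1.46, adjusted p = 0.000216, limma), so the Cct3 probe sets disagree.

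**Figure D4:**
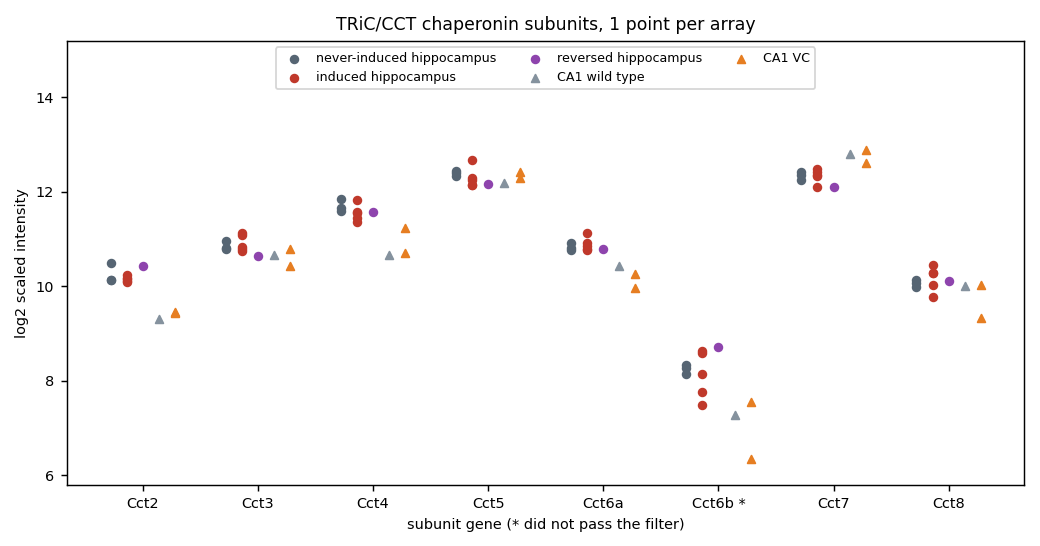
Each point is the log2 scaled intensity of a Cct gene, by its brightest probe set, on 1 array, with circles for hippocampus and triangles for CA1, on an axis that does not start at 0. The CA1 triangles lie below all circles for Cct2, Cct4 and Cct6a and above all circles for Cct7, whatever the genotype.

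Among the 25 tested J proteins 8 were lower and 3 higher, where 24.5% and 11.4% of all tested probe sets were. Dnajc17 had the lowest difference (-1.38 ± 0.34), with 7.85, 8.35 and 6.50 in CA1 and 8.54 to 9.58 in hippocampus. Dnajc9 was 2.00-fold lower (SE 0.12 on the log2 scale, adjusted p = 0.000339, limma), and its low wild-type CA1 array enters this value. Dnajb9, an ER partner of Hspa5, read 9.25 and 9.46 in 2 CA1 arrays and 10.40 in VC array 2, inside the hippocampal range of 9.76 to 11.08 (-0.88 ± 0.28). Dnajc5 read 9.02, 8.46 and 8.94 against 9.19 to 10.27 (-0.69 ± 0.23), Dnajc3 8.72, 9.18 and 9.25 against 9.30 to 9.92 (-0.69 ± 0.13), and Dnaja1, Dnajc7 and Dnajc2 had -0.63, -0.59 and -0.44. A second, dimmer Dnajc3 probe set had the opposite sign (0.50), and the median over the probe sets gave -0.09 and no call. A second Dnajc2 probe set had a difference of 0.04.

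Dnajc11 was the highest, with 9.90, 9.48 and 9.46 in CA1 and 7.07 to 9.28 in hippocampus (1.63 ± 0.51, adjusted p = 0.0311, limma). Dnajc8, a J protein of the spliceosome, read 13.60 and 13.52 in 2 CA1 arrays and 12.80 in VC array 2, where it fell within the hippocampal range of 12.42 to 12.87 (0.68 ± 0.17). Dnajb11, an ER J protein, read 9.89, 10.07 and 10.13 against 9.19 to 9.85 (0.49 ± 0.16). A second tested Dnajc8 probe set read 10.79 to 11.33 in CA1 and 10.73 to 11.96 in hippocampus, so it does not show the same difference.

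Of the Hsp70 family, Hspa8 was lower in CA1, with 13.02, 13.30 and 12.71 against 13.33 to 13.84 (-0.54 ± 0.16, adjusted p = 0.0261, limma), and so was Hspa1b (-0.81 ± 0.23). Hspa1a had the opposite sign (0.50) and did not pass. Hspd1 (-0.48 ± 0.16), Hspb8 (-0.48 ± 0.12) and Bag2 (-0.60 ± 0.13) were lower, and Bag3 was higher (0.89 ± 0.31, limma adjusted p = 0.0448). The Bag3 call was lost without either VC CA1 array, either 1-week array or 2-week array 2, with limma adjusted p up to 0.0868. Both tested Bag2 probe sets were low in CA1, the second with 9.95 to 10.09 against 10.49 to 10.88. Hsp90aa1 and Hsp90b1 had differences of -0.24 and -0.15 and did not pass.

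VC CA1 array 2 was the nearest of the 3 CA1 arrays to the hippocampal mean for 26 of the 54 members, against 14 for each of the others. Without VC CA1 array 1 the calls fell to 13. The tissue markers also differed between the regions: 6 measured neuronal markers of 8 summed to 34709 to 41439 in CA1 and 43907 to 55894 in hippocampus, 3 CA1 pyramidal markers of 5 to 4911 to 6164 and 3235 to 4624, and 7 choroid plexus and ependymal markers of 10 to 2960 to 3576 and 4687 to 13636. Their part in the chaperone differences was not tested.

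**Figure D5:**
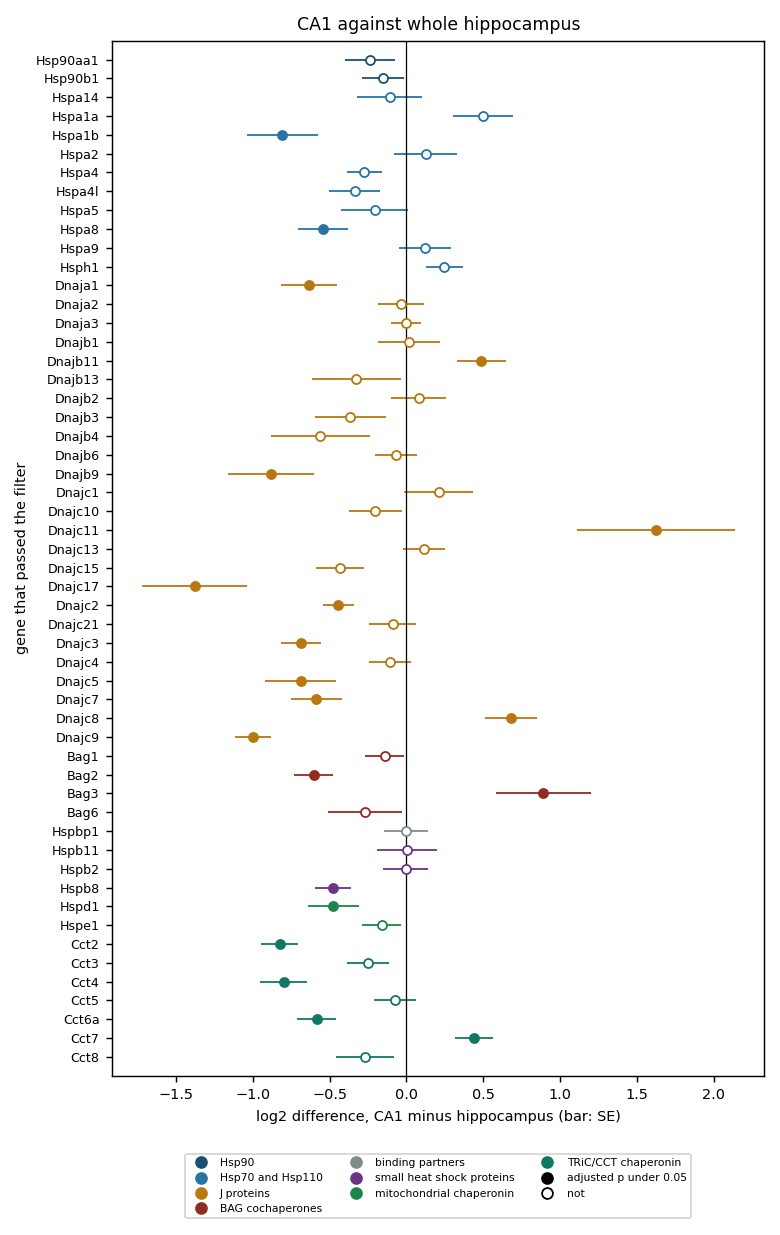
Points give the log2 difference of CA1 from hippocampus for the 54 tested genes, bars the SE from limma, and colours the family. Filled points are the 21 genes past an adjusted p of 0.05, from Dnajc17 at -1.38 to Dnajc11 at 1.63.

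The wider folding machinery gave a like count. Of 55 genes that act with these chaperones (heat shock factors, Hsp90 cochaperones, prefoldin, ER folding enzymes, the unfolded protein response and mitochondrial proteases), 45 have a probe set of their own and 37 were tested. The 37 include no heat shock factor: Hsf1 has no probe set with a single symbol on this array, and Hsf2 and Hsf4 did not pass the filter. None of the 37 passed in limma in any of the 9 comparisons other than CA1 against hippocampus. In each of those 9, 0 to 3 had an unadjusted p under 0.05. In CA1 against hippocampus 6 were higher and 6 lower, where 11.4% and 24.5% of all tested probe sets were. Their 12 of 37 is close to the 35.9% background. Prefoldin, which hands actin and tubulin to TRiC/CCT, was split: Pfdn2 was higher in CA1 (1.06 ± 0.15) and Pfdn5 and Vbp1 lower (-1.21 ± 0.13 and -0.72 ± 0.18). Stip1, which joins Hsp70 to Hsp90, was lower (-0.74 ± 0.20), as was the ER chaperone Canx (-0.99 ± 0.16). Pdia6, an ER folding enzyme, read 7.52, 6.04 (the floor) and 9.86 in CA1 and 9.53 to 10.30 in hippocampus, so VC CA1 array 2 lay in the hippocampal range and its fitted difference is no exact value. Atf4, a transcription factor of the stress response, was higher (0.88 ± 0.12).

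The promoter windows of 51 of the 59 members were found, 65 windows in all. CREB binds the sequence TGACGTCA (CRE) and, more weakly, its core TGACG. No member window holds TGACGTCA, and 2.60% of the 8413 windows of array genes do. The core TGACG, on either strand, is in 29 member windows of 25 genes (44.6%) and in 28.5% of the windows of array genes. The 21 tested members with the core had a median induced difference of 0.04, and the 25 without it -0.01. In CA1 the medians of VC minus wild type were 0.12 and 0.13.

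The Hsf1 pair (GAANNTTC or TTCNNGAA, which read the same on both strands) is in 17 member windows of 15 genes (26.2%) and in 12.1% of the windows of array genes. Overlapping pairs that form a run of at least 3 units are in 6 windows (9.23%) of Dnajb6, Hspd1, Hspe1 and Hsph1, and in 0.499% of the windows of array genes. Windows can overlap, so the 6 windows do not hold 6 separate runs and their share is no count of sites. Hspd1 and Hspe1 lie head to head and share the run: bases -120 to -40 of Hspe1, chr1:55088028-55088108, plus strand, are also held by 1 of the 2 Hspd1 windows on the other strand.
Hspe1: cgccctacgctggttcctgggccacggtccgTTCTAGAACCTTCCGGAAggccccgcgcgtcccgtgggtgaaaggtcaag

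The 14 tested members with an Hsf1 pair had a median induced difference of 0.02, and the 32 without it 0.03. In VC against wild-type CA1, 11 of those 14 had a positive difference, with a median of 0.15, and 16 of the 32 did, with a median of 0.06. A match of letters describes a window and not a site in use.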

How the data were processed

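RNA from 12 samples was hybridised to Affymetrix MG-U74Av2 arrays, 1 array each. Per the labels, poly(A) RNA was isolated and labelled with biotin. The authors deposited linear intensities, made with the array software GCOS per the submitters' processing notes, whose version, algorithm and scaling the sources used here do not give. The trimmed mean of the deposited intensities was 500.3 on 1 hippocampal array and all CA1 arrays and 3002 on the other 8 arrays.

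Each array was scaled to a trimmed mean of 1000 (without the highest and lowest 2%), floored at the 20th percentile (65.7) and log2 transformed. Of 12422 probe sets without the 66 controls, 7069 lay above their array's median on at least 2 arrays and were tested. Symbols came from the platform annotation, where 10833 probe sets had 1 symbol and 396 several. Of these, 2 Dnajc19 probe sets with several symbols were left out. Two-sided tests came from lmFit and eBayes of limma 3.58.1 (R 4.3.3), with 5 levels, or 7 with the weeks apart, and Benjamini-Hochberg adjustment over all 7069. An error after ± is the SE from limma. The fit was tested on simulated data. No detection calls were used. Precision is limited by how few arrays there are. Groups came from the sample titles.

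Same-numbered arrays were checked for shared deviations. Their correlations ran from -0.23 to 0.20, so the numbers were not used as pairs. Alternatives were other floors, quantile normalization, no filter, the median over probe sets, trend and robust settings, only the arrays compared, the deposited scale as a block, a replicate block and leaving out arrays. Centring on the median and the unblocked fit of numbered arrays were added after seeing the data.

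Genes named were those past the threshold, the 3 highest and 3 lowest differences per comparison, those whose induced and never-induced arrays did not overlap, the brightest and a set of well-known chaperones. Other genes with an unadjusted p under 0.05, second probe sets and further members were named after their values were seen. The members and lists were chosen with earlier results of these data known. Promoters came from RefSeq (GRCm38.p6) and were searched by exact letters.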

Additional observations from a re-analysis of the deposited data

Results flagged for a closer look

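Within the 5 induced hippocampal arrays, 3 of the 54 tested chaperone genes had 1 array far from the other 4 by Dixon's test, which chance does in about 1 of 20 genes. Bag6 read 11.46 on 1-week array 1 and 10.62 to 10.86 on the others; that array had the lowest 3′ to 5′ ratios of the hippocampal arrays, whose part was not tested. Hspa4 read 13.22 on 2-week array 1 and 12.95 to 13.01 on the others. Hspb11 read 8.50 on 2-week array 1 and 9.19 to 9.39 on the others.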

How the results depend on the processing

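No member was called in the 7 hippocampal comparisons under any alternative that could be run. In VC against wild-type CA1, where 1 member (Hspb8) was called, 0 were called with the floor at the 40th percentile, after quantile normalization, with only the arrays compared, with the deposited scale as a block and after centring on the median. Without a filter on dim probe sets 4 were called (Dnajc2, Dnajc9, Hspa1l and Hspb8), and leaving out a VC CA1 array gave 1 (Dnajc9, without array 2) to 2 (Hspa1b and Hspb8, without array 1). The test of the CA1 against the hippocampal effect called 3 members without the filter (Dnajc2, Dnajc9 and Hspb8). For CA1 against hippocampus, with 21 called, the scale block gave 2, and leaving out single arrays gave 13 (without VC CA1 array 1) to 20.

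The count over all tested probe sets in VC against wild-type CA1 was 33, and it was 0 with the floor at the 40th percentile or only the arrays compared, 14 with trend and robust settings, 18 with the scale block, 143 without VC CA1 array 1 and 292 without the filter. In the test of the CA1 against the hippocampal effect it was 4, with 0 to 34 when single arrays were left out (34 without VC CA1 array 1) and 228 without the filter. With 2 of 7069 probe sets called in induced against never-induced hippocampus, other settings gave 0 to 2, and at 1 week, also with 2, they gave 0 to 5. At 2 weeks the count was 11 and ran from 2 (without the array on dox, without wild-type array 2 and over numbered arrays) to 16. At 5 weeks it was 70, with 40 without the array on dox. For 5 weeks against 1 week it was 45, with 3 and 10 without 1-week arrays 1 and 2 and 0 with only the arrays compared. In the reversed array it was 0, and 43 and 45 without the filter. In CA1 against hippocampus it fell from 2539 to 288 with the scale block. The cause of these changes was not tested. Alternatives that would empty a level of 1 array could not be run.

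Of 1221 values of named genes under alternatives, 1127 kept their direction and side of the threshold, 86 lost a call, 5 gained one and 3 changed sign. Dnajc11 at 1 week ran from -0.25 (without 1-week array 2) to 1.45, Dnajb13 at 2 weeks from -0.0012 (without 2-week array 2) to 0.80, and Dnajc5 at 5 weeks against 1 week from -1.02 to 0.067 (without 1-week array 1). None of these had been called.

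A replicate block over the numbered arrays called 0 members, as did the same arrays without the block, and both called 2 probe sets at 2 weeks. Bag3 in induced against never-induced hippocampus was 0.60 in that fit, which leaves out the arrays on dox and at 5 weeks. The numbers are shared labels only.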
